A study of Sus scrofa with 5 samples.

Results

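The genes described here are POSTN, TNC, FN1, SPARC, THBS1, THBS2 and CTHRC1, which encode secreted proteins of healing wounds. They were picked by gene symbol, and each symbol matched 1 gene identifier, so the set is 7 of the 20286 genes measured. The identifiers are ENSSSCG00000009361 for POSTN, ENSSSCG00000005494 for TNC, ENSSSCG00000016174 for FN1, ENSSSCG00000017082 for SPARC, ENSSSCG00000004789 for THBS1, ENSSSCG00000004012 for THBS2 and ENSSSCG00000006051 for CTHRC1. All 7 were detected, with between 63518 (TNC) and 1362879 (SPARC) unique molecular identifiers (UMIs, each standing for 1 captured RNA molecule) over all barcodes. The measurements are of RNA, so nothing below gives the amount of protein.

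Pigs (Sus scrofa) received full thickness wounds that were covered with split thickness skin grafts (STSG), and single-cell RNA-seq was run on freshly digested tissue. The 5 groups, with 1 library each, were grafts under a hydrogel with a focal adhesion kinase inhibitor (FAKI) at day 90, untreated grafts at day 90, FAKI grafts at day 7, untreated grafts at day 7, and unwounded skin. Dressings were changed every other day. The labels give no strain, age, sex, dose or number of animals per library and name no gel without inhibitor, so the gel and the inhibitor cannot be told apart.

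Matricellular proteins sit in the extracellular matrix and signal to cells more than they bear load. Periostin (POSTN) binds integrins and collagen and helps collagen crosslinking, tenascin-C (TNC) loosens cell adhesion and appears around injury, and fibronectin (FN1) forms the provisional matrix on which fibroblasts migrate. SPARC binds collagen and takes part in its processing, thrombospondin-1 (THBS1) can activate latent TGF-beta, thrombospondin-2 (THBS2) limits vessel growth and affects collagen fibril assembly, and CTHRC1 marks collagen-producing fibroblasts in injured tissue.

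After filtering, 26842 cells were kept, with 3693 from the FAKI day 90 graft, 5388 from the untreated day 90 graft, 8653 from the FAKI day 7 graft, 7566 from the untreated day 7 graft and 1542 from unwounded skin. Median UMIs per cell ranged from 5495 to 9602 among the libraries. Cells were sorted into classes by marker genes, and the member genes took no part in the clustering. Fibroblast-like cells, the class that held most of the members' UMIs, numbered 789, 2093, 1416, 1411 and 259 in the same order of libraries. Levels are the class's summed UMIs of a gene per 1000000 UMIs of the class (CPM), with exact Poisson 95% intervals. With 1 library a group there was no test, the intervals cover counting error only, and spread between animals is unknown. A gene was called higher or lower when the 2 libraries differed by 1.5-fold or more with at least 50 CPM in either.

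Some libraries shared cell barcodes. The FAKI day 90 graft and unwounded skin had 152 in common, 8.07% of the smaller library, the untreated day 90 graft and unwounded skin had 133 (7.06%), and the 2 day 90 grafts had 70 (1.71%). The other pairs shared between 0.159% and 0.346%. Among the cells kept, 114 of 1542 in unwounded skin had a barcode found in another library, with a median of 43162.5 UMIs, against 7314 UMIs in the remaining cells. Among fibroblast-like cells they were 16 of 789 in the FAKI day 90 graft, 20 of 2093 in the untreated day 90 graft and 7 of 259 in unwounded skin. Values without these cells are given where they matter, and the part of the shared barcodes in a result was not tested beyond that.

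TNC, CTHRC1 and THBS2 were higher in fibroblast-like cells of all 4 grafts than in those of unwounded skin, and FN1 was higher in 3 of the 4. With the clusters found in both libraries weighing the same, THBS2 was under the threshold in the FAKI day 7 graft (log2 0.54), and FN1 in both day 90 grafts (-0.25 in the FAKI and 0.18 in the untreated graft). Against unwounded skin only 1 cluster was shared in each comparison, with 87 cells in the FAKI day 7 graft. POSTN and SPARC were not called higher in fibroblast-like cells of any graft. This covers 1 unwounded library and this class alone, and other classes are given below. TNC had the largest ratios. It stood at 418 CPM (interval 407 to 428) in the FAKI day 90 graft, 617 CPM (609 to 624) in the untreated day 90 graft, 592 CPM (581 to 602) in the FAKI day 7 graft and 465 CPM (455 to 475) in the untreated day 7 graft, against 24.6 CPM (19.5 to 30.6) in unwounded skin. All 4 grafts were thus well above unwounded skin, where the level rested on 79 UMIs. The ratios to unwounded skin were 17.0 (interval 13.6 to 21.5), 25.1 (20.1 to 31.7), 24.1 (19.3 to 30.4) and 18.9 (15.2 to 23.9) in that order. The CPM intervals of the 4 grafts did not overlap, with the untreated day 90 graft highest and the FAKI day 90 graft lowest.

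CTHRC1 had 1429 CPM (1409 to 1449) in the FAKI day 90 graft, 1683 CPM (1670 to 1696) in the untreated day 90 graft, 1009 CPM (996 to 1023) in the FAKI day 7 graft and 937 CPM (923 to 951) in the untreated day 7 graft, against 166 CPM (152 to 181) in unwounded skin. Both day 90 libraries were above both day 7 libraries, and all 4 were above unwounded skin. The ratios to unwounded skin were 8.61, 10.1, 6.08 and 5.65 in that order. Without the cells of shared barcodes the level in unwounded skin was 145 CPM, and the 4 log2 ratios were then 3.27, 3.54, 2.80 and 2.69.

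**Figure D1:**
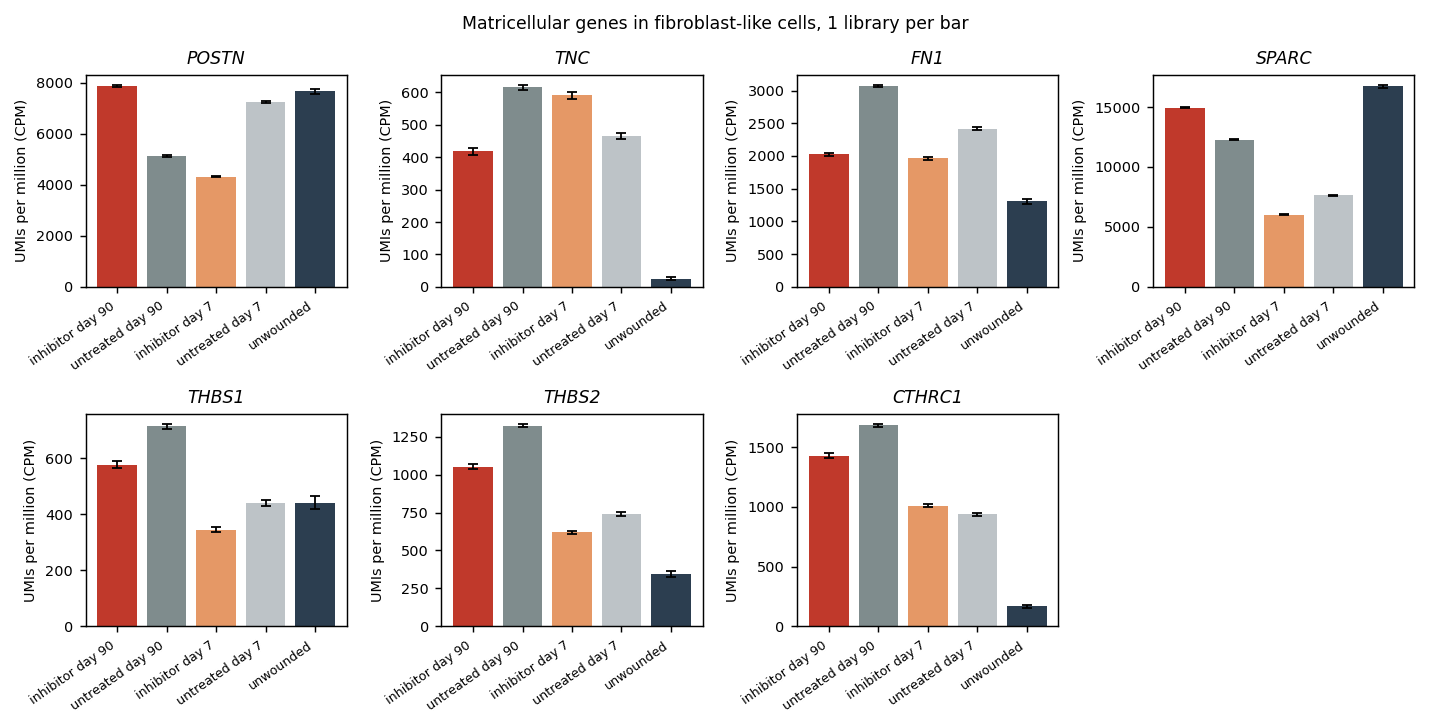
Levels of the 7 genes in fibroblast-like cells, in CPM, with 1 bar for each library and exact Poisson 95% intervals as error bars. TNC and CTHRC1 were low in unwounded skin (24.6 and 166 CPM) and higher in all 4 grafts, whereas POSTN and SPARC reached 7666 and 16727 CPM in unwounded skin.

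THBS2 stood at 1052 CPM (1035 to 1069) in the FAKI day 90 graft, 1323 CPM (1312 to 1335) in the untreated day 90 graft, 619.5 CPM (609 to 631) in the FAKI day 7 graft and 742 CPM (729 to 754) in the untreated day 7 graft, against 341 CPM (321 to 361) in unwounded skin. The order of the libraries was close to that of CTHRC1, with day 90 above day 7 and unwounded skin last. FN1 had 2029 CPM (2005 to 2052) in the FAKI day 90 graft, 3074 CPM (3056 to 3091) in the untreated day 90 graft, 1962 CPM (1942 to 1981) in the FAKI day 7 graft and 2414 CPM (2391 to 2437) in the untreated day 7 graft, against 1308 CPM (1269 to 1349) in unwounded skin. For FN1 both untreated grafts were above both FAKI grafts. The FN1 ratio to unwounded skin in the FAKI day 7 graft lay just under the 1.5-fold threshold, with a log2 value of 0.58. In the FAKI day 90 graft it was 1.55, and without the cells of shared barcodes its log2 value, 0.56, also fell under the threshold.

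SPARC was found in nearly every fibroblast-like cell. It reached 14946 CPM (14882 to 15009) in the FAKI day 90 graft, 12288 CPM (12253 to 12323) in the untreated day 90 graft, 6011 CPM (5977 to 6046) in the FAKI day 7 graft and 7650 CPM (7610 to 7690) in the untreated day 7 graft, against 16727 CPM (16586 to 16869) in unwounded skin. Day 7 grafts were therefore the low libraries for SPARC. The FAKI day 7 graft was 2.78-fold lower than unwounded skin (2.75 to 2.81) and the untreated day 7 graft 2.19-fold lower (2.16 to 2.21), whereas both day 90 grafts were within 1.5-fold of it.

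POSTN had 7887 CPM (7841 to 7934) in the FAKI day 90 graft, 5135 CPM (5113 to 5158) in the untreated day 90 graft, 4323 CPM (4294 to 4352) in the FAKI day 7 graft and 7247 CPM (7207 to 7286) in the untreated day 7 graft, against 7666 CPM (7571 to 7763) in unwounded skin. The FAKI day 7 graft was 1.77-fold lower than unwounded skin, and no graft was called higher. With clusters weighing the same its log2 ratio there was -0.46, under the threshold. THBS1 had 575 CPM (563 to 588) in the FAKI day 90 graft, 713 CPM (705 to 722) in the untreated day 90 graft, 344 CPM (336 to 353) in the FAKI day 7 graft and 439.9 CPM (430.3 to 449.7) in the untreated day 7 graft, against 440.5 CPM (418 to 464) in unwounded skin. The untreated day 7 graft and unwounded skin had overlapping intervals for THBS1, and the call against unwounded skin was made for the untreated day 90 graft alone, at 1.62-fold (1.54 to 1.71). With clusters weighing the same it was made for the untreated day 7 graft instead, with log2 ratios of 0.57 in the untreated day 90 and 1.04 in the untreated day 7 graft.

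Counted over the set, the FAKI day 90 graft had 4 members higher and 0 lower than unwounded skin, where 9.53% of the genes tested were higher and 16.3% lower. The untreated day 90 graft had 5 higher and 0 lower, against 23.6% and 20.8% of genes. The FAKI day 7 graft had 3 higher and 2 lower, against 42.8% and 20.6%, and the untreated day 7 graft had 4 higher and 1 lower, against 37.6% and 16.7%. At day 7 so many genes were called that the count of members, above all in the FAKI graft, was near the share over all genes. Without the cells of shared barcodes the count for the FAKI day 90 graft was 3 higher, FN1 being the one lost, and the other 3 counts stayed as they were. The median log2 ratio of the members was 0.63, 1.23, 0.58 and 0.88 in those 4 comparisons, beside 0.03, 0.16, 0.38 and 0.34 over all genes tested. The 4 comparisons share the unwounded library and are not independent.

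Between day 90 and day 7, the FAKI grafts had 4 members higher and 0 lower, where 13.8% of genes were higher and 39.5% lower. These were SPARC at 2.49-fold, POSTN at 1.82-fold (1.81 to 1.84), THBS2 at 1.70-fold (1.66 to 1.74) and THBS1 at 1.67-fold (1.62 to 1.73). The untreated grafts also had 4 higher and 0 lower, where 8.61% of genes were higher and 19.5% lower. These were CTHRC1 at 1.80-fold (1.77 to 1.83), THBS2 at 1.78-fold (1.75 to 1.82), THBS1 at 1.62-fold (1.58 to 1.66) and SPARC at 1.61-fold. SPARC, THBS1 and THBS2 were called in both pairs of libraries, POSTN in the FAKI pair and CTHRC1 in the untreated pair. With clusters weighing the same, THBS1 in the FAKI pair was called lower at day 90 (log2 -0.75), TNC (0.60) and CTHRC1 (0.90) were called higher there beside POSTN, SPARC and THBS2, and the untreated pair had no call. The FAKI pair shared 2 clusters, and 1 of them, led by THBS4, had 23 cells at day 7. THBS1 had 592 CPM at day 90 and 1453 CPM at day 7 in that cluster. In the other, led by FBLN1, it had 600 CPM at day 90 and 547 CPM at day 7. Whether those pairs differ was not tested.

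The comparison of inhibitor-treated with untreated grafts gave few calls. At day 7 the FAKI graft had 0 members higher and 1 lower, where 3.24% of genes were higher and 4.0% lower. The member was POSTN, which was 1.68-fold lower (1.66 to 1.69) in the FAKI graft, a call lost with clusters weighing the same (log2 -0.44). The other 6 lay within 1.5-fold, with ratios of 1.27 for TNC, 1.08 for CTHRC1, 0.835 for THBS2, 0.813 for FN1, 0.786 for SPARC and 0.783 for THBS1. At day 90 the FAKI graft had 1 member higher and 1 lower, where 6.20% of genes were higher and 5.58% lower. POSTN was the higher one, at 1.54-fold (1.52 to 1.55), and FN1 was 1.52-fold lower. Both lay just past the threshold. The POSTN call was lost with each library clustered alone (log2 0.55), by the mean of per-cell CPM (0.51) and with clusters weighing the same (0.13). The FN1 call was lost with each library clustered alone (-0.57), with doublets kept (-0.57), under median-of-ratios scaling (-0.47) and with clusters weighing the same (0.01). The other ratios were 1.22 for SPARC, 0.849 for CTHRC1, 0.806 for THBS1, 0.795 for THBS2 and 0.677 for TNC. Without the cells of shared barcodes TNC passed the threshold as well, with a log2 ratio of -0.61. The sign of the POSTN ratio differed between the days, but neither call held under every alternative.

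**Figure D2:**
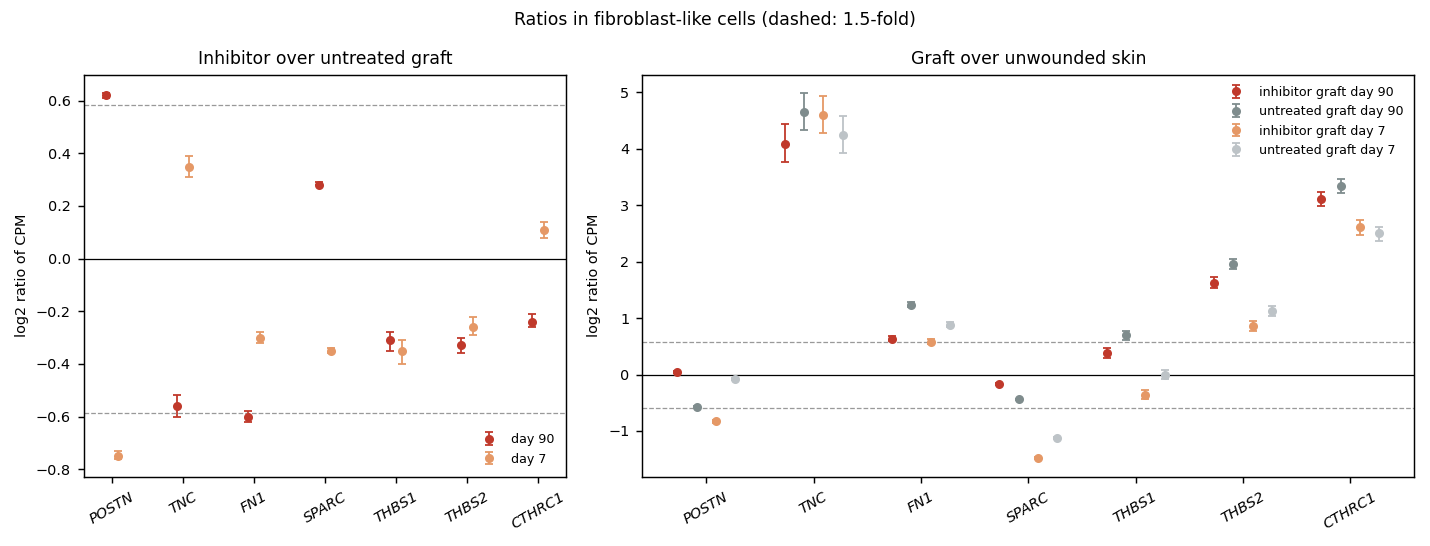
Log2 ratios of CPM in fibroblast-like cells, FAKI over untreated grafts on the left and each graft over unwounded skin on the right, with 95% counting intervals and dashed lines at 1.5-fold. On the left POSTN lies above the upper line at day 90 (0.62) and below the lower line at day 7 (-0.75), and on the right TNC and CTHRC1 lie far above the line in all 4 grafts.

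Fibroblast-like cells comprised 5 clusters whose shares differed among the libraries. A cluster led by FBLN1, C4A and CCDC80 made up 70.1% of fibroblast-like cells in the FAKI day 90 graft, 20.5% in the untreated day 90 graft, 6.14% in the FAKI day 7 graft, 13.2% in the untreated day 7 graft and 93.8% in unwounded skin. A cluster led by THBS4, SFRP2 and COL11A1 held 23.8%, 51.8%, 1.62%, 2.41% and 0% in the same order. Day 7 grafts consisted mainly of the cluster led by MMP13, MMP3 and IL11 (43.9% in the FAKI and 29.8% in the untreated graft) and the cluster led by GREM1 and F13A1 (44.9% and 50.7%). The remaining cluster, led by the cell cycle genes UBE2C and CDCA3, held between 2.32% and 3.90%.

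The members' levels differed among these clusters. At day 7 POSTN was highest in the GREM1 cluster, with 9594 CPM in the FAKI and 12206 CPM in the untreated graft. In the untreated day 90 graft this cluster had 8524 CPM (8363 to 8687), which overlapped the 8497 CPM (8420 to 8575) of the FBLN1 cluster. In the MMP13 cluster POSTN had 2724 CPM in the untreated day 90 graft. There it had 775 CPM in the FAKI and 2413 CPM in the untreated day 7 graft. In each of these 3 libraries this was the lowest POSTN level of the clusters. FN1 had the opposite pattern in these 3 libraries, with 3809, 3030 and 4414 CPM in the MMP13 cluster and 1279, 487 and 922 CPM in the GREM1 cluster. Clusters with under 20 cells in a library were not given a level.

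In the THBS4 cluster of the FAKI and the untreated day 90 graft, CTHRC1 had 2308 and 2147 CPM, THBS2 1858 and 1482 CPM, TNC 838 and 701 CPM, and FN1 3623 and 3213 CPM. All 4 were lower in the FBLN1 cluster of the same libraries, where CTHRC1 had 958 and 989.8 CPM, THBS2 605 and 615 CPM, TNC 188 and 199 CPM, and FN1 1093 and 1472 CPM. POSTN ran the other way, with 6003 and 5284 CPM in the THBS4 cluster and 9119 and 8497 CPM in the FBLN1 cluster. THBS1 had 592 and 853 CPM in the THBS4 cluster and 600 and 677 CPM in the FBLN1 cluster. The untreated day 90 graft was the library with the highest pooled TNC, FN1, THBS1, THBS2 and CTHRC1. It also had more of its fibroblast-like cells in the THBS4 cluster, and whether this bears on the pooled levels was not tested.

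**Figure D3:**
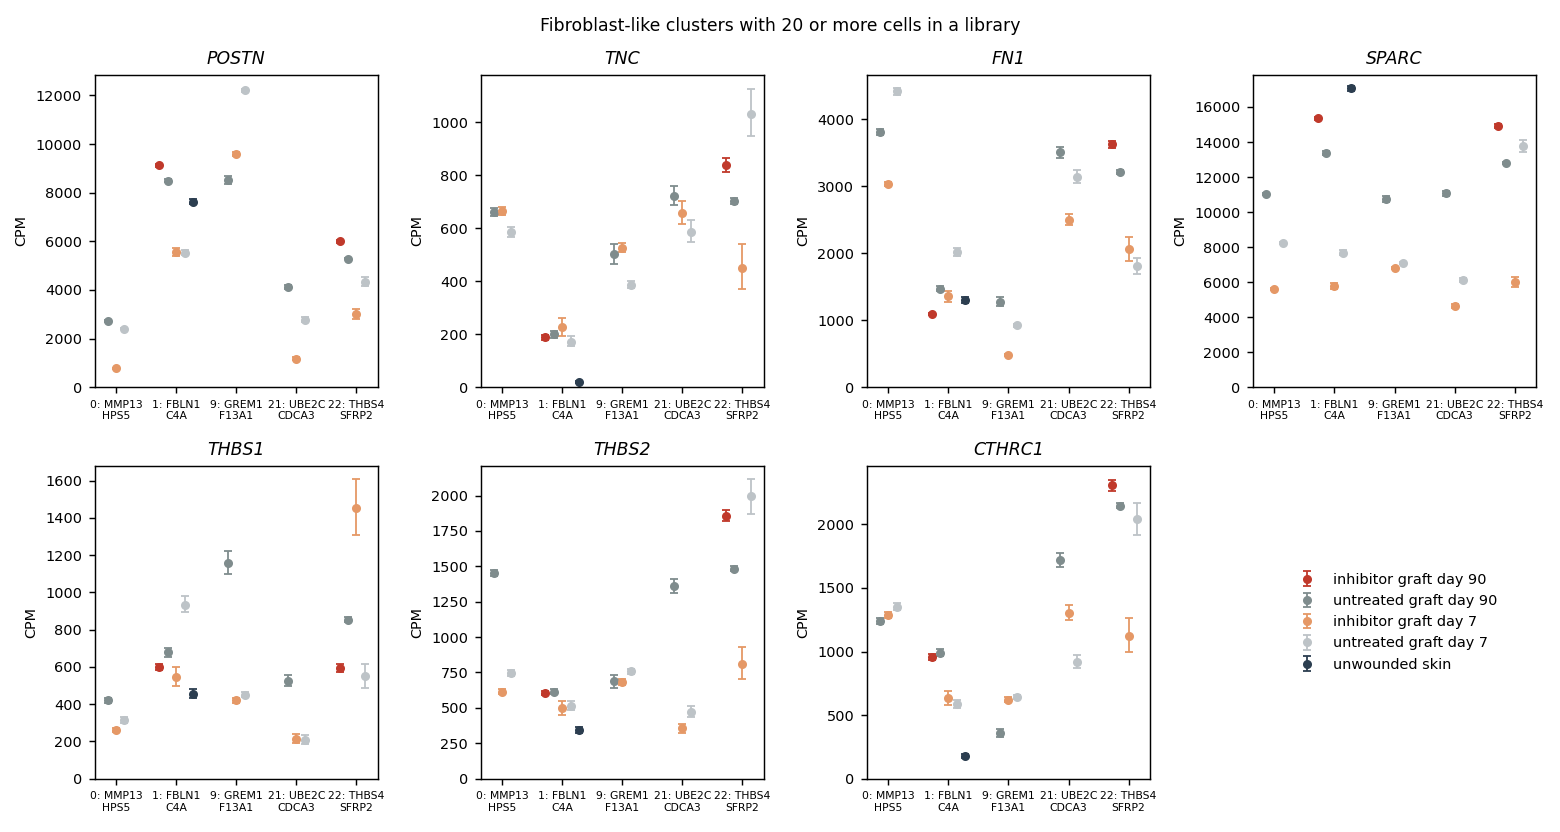
CPM of each gene in the 5 fibroblast-like clusters, named by number and 2 leading genes, with 1 point for each library that had 20 or more cells there and Poisson 95% intervals. At day 7 POSTN is highest in the GREM1 cluster (12206 CPM in the untreated graft), FN1 is highest in the MMP13 cluster at day 7, and within the FBLN1 cluster TNC stays low in unwounded skin (19.6 CPM).

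The FBLN1 cluster was the one with 20 or more cells in all 5 libraries. Within it POSTN had 9119 CPM (9055 to 9183) in the FAKI day 90 graft, 8497 CPM (8420 to 8575) in the untreated day 90 graft, 5548 CPM (5388 to 5713) in the FAKI day 7 graft and 5540 CPM (5436 to 5647) in the untreated day 7 graft, against 7630 CPM (7532 to 7728) in unwounded skin. The 2 day 7 grafts thus had overlapping POSTN intervals in this cluster. TNC had 188, 199, 226 and 172 CPM in the grafts in that order, against 19.6 CPM (15.0 to 25.3) in unwounded skin. CTHRC1 had 958, 989.8, 631 and 586 CPM, against 174 CPM. TNC and CTHRC1 were therefore also higher in grafts inside a single cluster, at smaller ratios than in the pooled class. The cluster levels keep the cells of shared barcodes, which were 7 of 259 fibroblast-like cells in unwounded skin.

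When the clusters with 20 or more cells in both libraries were given equal weight, the inhibitor comparisons changed. The log2 ratio of POSTN was 0.13 at day 90 and -0.44 at day 7, both under the threshold, and that of FN1 at day 90 was 0.01. THBS2 passed the threshold at day 7, with -0.60 in the FAKI over the untreated graft. In the THBS4 cluster, with 23 FAKI and 34 untreated cells, THBS2 had 809.9 and 1994 CPM. In the MMP13, FBLN1, GREM1 and UBE2C clusters it had 614, 496, 683 and 354 CPM in the FAKI graft. The untreated graft had 747, 516, 758 and 473 CPM there, so the small THBS4 cluster weighed heavily in this call. Each comparison with unwounded skin shared 1 cluster, the FBLN1 cluster, so its ratios restate the levels above and are not a separate check. That cluster had 87 cells in the FAKI day 7 graft. Of the calls against unwounded skin, those of TNC and CTHRC1 remained in all 4 grafts, with log2 ratios from 3.13 to 3.53 for TNC and from 1.75 to 2.51 for CTHRC1, and those of SPARC in both day 7 grafts. THBS2 kept 3 of its 4 calls and FN1 1 of its 3. The 4 calls of day 90 over day 7 in untreated grafts did not remain, with log2 ratios of 0.57 for THBS1, 0.46 for SPARC, 0.32 for THBS2 and 0.22 for CTHRC1.

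The share of fibroblast-like cells with at least 1 UMI was compared after thinning each cell to 3000 UMIs. TNC was found in 35.7% of such cells in the FAKI day 90 graft, 60.2% in the untreated day 90 graft, 60.5% in the FAKI day 7 graft and 45.6% in the untreated day 7 graft, against 3.77% in unwounded skin. CTHRC1 was found in 68.4%, 86.2%, 71.6% and 60.6% of cells in grafts, in that order, against 16.3% in unwounded skin. POSTN was found in 95.2%, 94.8%, 68.6% and 84.9%, against 94.6%, so the FAKI day 7 graft had the lowest share. SPARC was found in 99.8% to 100% of the cells in every library. As a measure of free RNA, T or NK-like cells of the FAKI and the untreated day 7 graft showed POSTN in 4.73% and 6.57%, SPARC in 7.09% and 11.3%, TNC in 1.01% and 1.88%, and CTHRC1 in 2.03% and 0.939% of thinned cells. Most T or NK-like cells held under 3000 UMIs, so these shares rest on the deeper 296 of 1512 cells in the FAKI and 213 of 698 in the untreated day 7 graft, while 1270 of 1416 and 1262 of 1411 fibroblast-like cells were deep enough.

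Fibroblast-like cells usually held several members at once. The mean number of the 7 genes detected per thinned cell was 5.16 in the FAKI day 90 graft, 5.85 in the untreated day 90 graft, 4.99 in the FAKI day 7 graft and 4.94 in the untreated day 7 graft, against 3.95 in unwounded skin. All 7 were found in 17.1%, 32.9%, 9.76% and 10.1% of graft cells, in that order, and in 0 of 239 thinned cells of unwounded skin, which allows a share of up to 1.26%.

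The members also differed in how far they were confined to fibroblast-like cells. These held 98% of the POSTN UMIs in the FAKI day 90 graft, 98.8% in the untreated day 90 graft, 92.8% in both day 7 grafts and 86.2% in unwounded skin. For CTHRC1 the share was 96.7%, 98.9%, 94.2%, 95.5% and 86.1%, and for THBS2 98%, 98.8%, 96.4%, 96.2% and 75.1%, in the order FAKI day 90, untreated day 90, FAKI day 7, untreated day 7 and unwounded. For THBS1 it was 50.3%, 75.1%, 28.0%, 32.3% and 26.9%. THBS1 was thus mostly a product of other classes except at day 90. Endothelial-like cells held 41.0%, 17.5%, 22.1%, 35.8% and 56.5% of THBS1 UMIs, and pericyte or smooth muscle-like cells 6.91%, 6.28%, 42.2%, 24.9% and 5.18%. Such shares follow the number of cells of each class in a library as well as the level per cell.

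**Figure D4:**
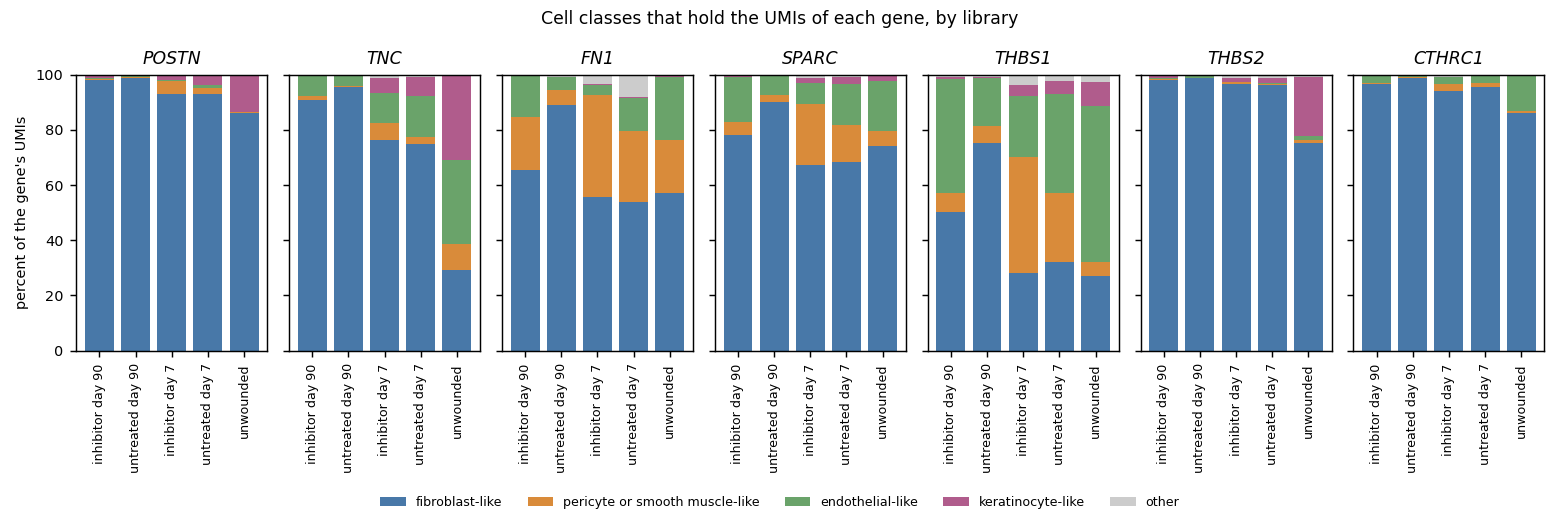
Percent of each gene's UMIs held by 4 cell classes and by all other cells (grey), with 1 bar for each library. Fibroblast-like cells hold nearly all POSTN, THBS2 and CTHRC1 in grafts, while FN1 and THBS1 are divided among fibroblast-like, pericyte or smooth muscle-like and endothelial-like cells.

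In pericyte or smooth muscle-like cells, which wrap small vessels, FN1 had 1228 CPM in the FAKI day 90 graft, 1106 CPM in the untreated day 90 graft, 1225 CPM in the FAKI day 7 graft and 1693 CPM in the untreated day 7 graft, against 712 CPM in unwounded skin. THBS1 had 164, 350.4, 492 and 506 CPM in the grafts in that order, against 137 CPM in unwounded skin. The day 7 grafts were the high libraries for THBS1 here, at 3.59-fold (3.18 to 4.06) in the FAKI graft and 3.69-fold (3.27 to 4.18) in the untreated graft over unwounded skin. That order differs from fibroblast-like cells, where day 90 was above day 7. POSTN was 40.7, 86.3, 211 and 285 CPM in the grafts, against 15.1 CPM in unwounded skin, while in T or NK-like cells of the same grafts it was 23.7, 53.1, 17.5 and 47.1 CPM. At day 7 the pericyte POSTN level was thus several times that of T or NK-like cells, and at day 90 the levels were closer. SPARC was nearly level in pericytes, between 1866 and 2250 CPM.

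In endothelial-like cells TNC had 21.7 CPM in the FAKI day 90 graft, 52.5 CPM in the untreated day 90 graft, 173 CPM in the FAKI day 7 graft and 107 CPM in the untreated day 7 graft, against 9.98 CPM in unwounded skin. Day 7 was the high time point, and TNC was 1.61-fold higher (1.51 to 1.73) in the FAKI than in the untreated graft at day 7 and 2.42-fold lower (2.16 to 2.70) at day 90. The day 7 difference was under 1.5-fold with members kept for clustering (log2 0.50), each library clustered alone (0.25), stricter cell filters (0.55), doublets kept (0.52) and clusters weighing the same (0.22). FN1 in these cells had 294, 341, 270.5 and 628 CPM in the grafts, against 204 CPM in unwounded skin. The untreated day 7 graft stood apart, and the FAKI graft was 2.32-fold lower (2.22 to 2.42) than it, but by a log2 ratio of only -0.18 with each library clustered alone. THBS1 had 302, 335, 546 and 563 CPM, against 361 CPM. Of endothelial-like cells, 82 of 1355, 65 of 1299, 4 of 1241, 11 of 1624 and 81 of 652 had a shared barcode, in the order of the libraries above. Without them FN1 was 254, 279, 267 and 631 CPM in the grafts, against 146 CPM in unwounded skin, and TNC was 19.4, 45.5, 171 and 107 CPM, against 8.78 CPM.

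**Figure D5:**
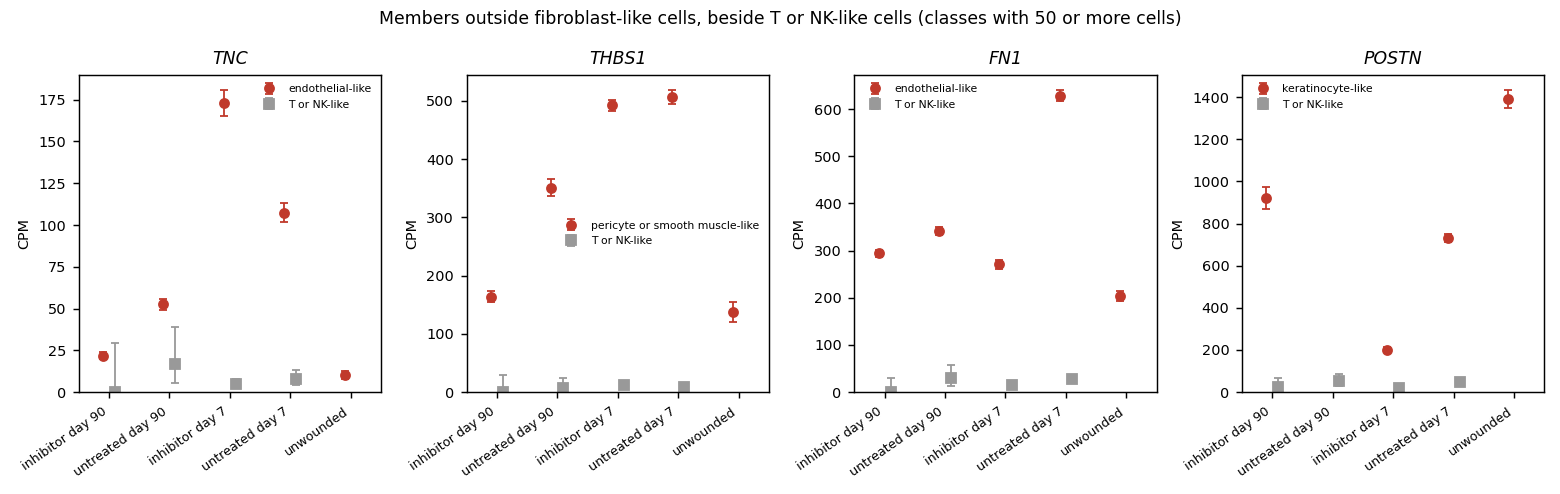
CPM of TNC and FN1 in endothelial-like cells, THBS1 in pericyte or smooth muscle-like cells and POSTN in keratinocyte-like cells (circles), beside T or NK-like cells (grey squares), for classes with 50 or more cells in a library and with Poisson 95% intervals. TNC and THBS1 are highest in the day 7 libraries, and POSTN in keratinocyte-like cells is highest in unwounded skin (1391 CPM), while its lower value in the FAKI than the untreated day 7 graft turned round with each library clustered alone.

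Unwounded skin had 19 T or NK-like cells, too few for a comparison with keratinocyte-like cells. In grafts with 50 or more cells of both classes, keratinocyte-like cells carried POSTN at levels far above those of T or NK-like cells. It stood at 919.8 CPM in the FAKI day 90 graft, 202 CPM in the FAKI day 7 graft and 731 CPM in the untreated day 7 graft, against 1391 CPM in unwounded skin, while the untreated day 90 graft had 29 cells of this class, too few for a comparison. The FAKI day 7 graft was the low library, 3.62-fold lower (3.40 to 3.86) than the untreated day 7 graft. With each library clustered alone this log2 ratio turned to 1.28, so its direction depends on the clustering. Keratinocyte-like cells held 13.3% of POSTN UMIs in unwounded skin. TNC in these cells was 5.23, 133 and 116 CPM in the same 3 grafts, against 29.9 CPM in unwounded skin. Without cells of shared barcodes, 13 of 62 in the FAKI day 90 graft and 14 of 136 in unwounded skin, TNC was 1.04 CPM from 1 UMI in the FAKI day 90 graft, 134 and 116 CPM in the day 7 grafts, and 6.65 CPM from 11 UMIs in unwounded skin. POSTN in unwounded skin was then 1840 CPM. THBS2 was 98.6, 30.1 and 39.8 CPM in the grafts, against 113 CPM in unwounded skin, and 61.3, 30.5 and 40.0 CPM, against 88.8 CPM, without them.

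FN1 was also found in a cluster of unnamed cells led by genes that include SPP1 and ARG1. It had 142 CPM there in the FAKI day 90 graft, 381 CPM in the untreated day 90 graft, 450.4 CPM in the FAKI day 7 graft and 1223 CPM in the untreated day 7 graft. The cluster had 29, 98, 449 and 471 cells in those libraries. Its level was highest in the untreated day 7 graft, as in endothelial-like and pericyte or smooth muscle-like cells. T or NK-like cells had 0, 29.9, 14.0 and 28.1 CPM of FN1 in the same libraries.

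THBS2 and CTHRC1 were low in the vascular classes, THBS2 at the level of T or NK-like cells. In pericyte or smooth muscle-like cells THBS2 was between 4.95 and 9.56 CPM and CTHRC1 between 2.02 and 24.8 CPM, beside 0 to 23.2 CPM and 6.42 to 19.9 CPM in the T or NK-like cells of the 4 grafts. Endothelial-like cells had CTHRC1 between 21.8 and 50 CPM in the grafts, against 9.73 CPM in unwounded skin.

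Summed over all cells, SPARC was 5728 CPM in the FAKI day 90 graft, 7308 CPM in the untreated day 90 graft, 2560 CPM in the FAKI day 7 graft and 3044 CPM in the untreated day 7 graft, against 4077 CPM in unwounded skin. The untreated day 90 graft was the highest library, while among fibroblast-like cells unwounded skin was. Over all cells TNC was 138, 346, 221 and 169 CPM in the grafts, against 15.3 CPM in unwounded skin, and CTHRC1 443, 910.2, 306 and 266 CPM, against 34.9 CPM. These sums depend on the share of fibroblast-like cells in each library, and fewer such cells and less RNA per cell cannot be told apart in them.

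Genes of 4 related lists were set beside the members in fibroblast-like cells. Among 20 other matricellular genes, 14 passed 50 CPM in either day 7 graft, with 1 higher and 3 lower in the FAKI than in the untreated graft, where 3.24% of all genes were higher and 4.0% lower. Osteopontin (SPP1), a secreted ligand of integrins and CD44, had 60.3 CPM in the FAKI and 6.18 CPM in the untreated graft. SPP1 is also a leading gene of the unnamed cells above, and whether their free RNA bears on this level was not tested. CCN2, a TGF-beta and YAP target also called CTGF, had 114 and 227 CPM. Tenascin-X (TNXB), a matrix protein of mature dermis, had 22.4 and 54.6 CPM, and FBLN1 had 42.1 and 75.8 CPM. At day 90, 16 passed, with 4 higher and 6 lower in the FAKI graft, where 6.20% of all genes were higher and 5.58% lower. CCN3 had 15.1 CPM in the FAKI and 172 CPM in the untreated graft, the cartilage and tendon protein COMP 9.05 and 90.1 CPM, thrombospondin-4 (THBS4) 694 and 1775 CPM, and TNXB 316 and 104 CPM. THBS4 is a leading gene of one of the clusters above, TNXB of another, and the FAKI and untreated grafts differed in the shares of both. Against unwounded skin, THBS4 was at 694 CPM in the FAKI day 90 graft and 1775 CPM in the untreated day 90 graft, against 5.29 CPM.

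Of 19 listed receptors, which bind these proteins at the cell surface, 17 were found by symbol and 6 passed 50 CPM in the inhibitor comparisons. At day 7 none was called between the FAKI and the untreated graft. At day 90, 0 of 6 were higher and 3 lower in the FAKI graft, beside the same 6.20% and 5.58% of all genes: integrin alpha 11 (ITGA11), which binds collagen, had 45.9 CPM in the FAKI and 90.3 CPM in the untreated graft, integrin beta 1 (ITGB1), the shared subunit of many receptors, 391 and 620.2 CPM, and integrin alpha 5 (ITGA5), the fibronectin receptor subunit, 80.5 and 121 CPM. Receptors higher than in unwounded skin were 2 of 5 in the FAKI day 90 graft, 4 of 6 in the untreated day 90 graft, 4 of 6 in the FAKI day 7 graft and 5 of 6 in the untreated day 7 graft, where 9.53%, 23.6%, 42.8% and 37.6% of all genes were higher. Integrin alpha V (ITGAV) had 181 CPM in the untreated day 7 graft, against 60.4 CPM in unwounded skin. The median log2 ratio of the receptors was -0.56 at day 90, FAKI over untreated, beside -0.13 over all genes.

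Of 18 genes of inducing signals, mostly of the TGF-beta, interleukin-13 and YAP pathways, 16 were found. In the FAKI over the untreated graft, 1 of 8 was lower at day 7, IL13RA1 with 48.0 CPM in the FAKI and 74.0 CPM in the untreated graft, and 0 of 5 were called at day 90. Over all genes 3.24% were higher and 4.0% lower at day 7, and 6.20% higher and 5.58% lower at day 90. TGFB1, a ligand that induces several members, had 53.0 CPM in the FAKI and 60.0 CPM in the untreated day 7 graft, against 23.0 CPM in unwounded skin. Among 13 matrix partners, all passing 50 CPM, 1 was lower in the FAKI than the untreated graft at day 7, versican (VCAN) with 163 and 332 CPM, and 1 was higher at day 90, COL6A3 with 2399 and 1489 CPM. With 1 gene called each time, these counts were near the shares over all genes, 4.0% lower at day 7 and 6.20% higher at day 90. COL1A1, a chain of collagen I, had 112555 CPM in the FAKI and 89977 CPM in the untreated day 90 graft, 27392 CPM in the FAKI and 33814 CPM in the untreated day 7 graft, against 120894 CPM in unwounded skin. Day 7 was the low time point for COL1A1, as it was for SPARC. COL1A1, COL1A2, COL3A1, COL5A1, COL6A3 and DCN on this list were also markers used to name fibroblast-like cells.

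Over 39 sums, 1 for each class and library with 50 or more cells, the pattern most like that of POSTN among 6052 genes was SFRP1 (Pearson r 0.946 of log2 of CPM plus 10), followed by DCN (0.944) and SPON1 (0.936). For SPARC it was COL12A1 (0.970), FSTL1 (0.952) and COL5A2 (0.951), for THBS2 CRABP2 (0.975), DCN (0.944) and MRC2 (0.940), and for CTHRC1 C1QTNF3 (0.935), PHACTR3 (0.924) and P4HA3 (0.923). For FN1 it was LOXL2 (0.945), EFEMP2 (0.944) and MGP (0.943), and for THBS1 SERPINH1 (0.953), CDC42EP5 (0.948) and PPIC (0.938). TNC had the weakest likeness to any gene, with ARNTL2 (0.872), IGFBP6 (0.857) and DCLK1 (0.852). Between members, r ran from 0.36 for THBS1 with THBS2 to 0.89 for POSTN with THBS2, FN1 with SPARC, and SPARC with THBS1. Sums of one library share its depth and free RNA, and sums of one class share its cells, so these values are a description.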

How the data were processed

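Single-cell 3' libraries (10x Chromium v3) of 5 tissue samples were analysed. The authors deposited a matrix of UMI counts per gene and barcode for each library, with whole, unnormalized counts; the submitters' processing notes name Cell Ranger and Seurat 3.1.1, the matrix headers carry software version 3.1.0, and the genome build is not given in the sources used here. Libraries held 1883 to 10962 barcodes and 18485301 to 79671374 UMIs. The genes described and all lists were chosen with earlier results of these data known.

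Cells with at least 500 genes and at most 25% mitochondrial UMIs were kept, and the top Scrublet-scored barcodes (0.8% per 1000 barcodes) removed as doublets. Counts were log-normalized, and 2000 variable genes without the members (5 of the 7 were among them) gave 30 principal components, 20 neighbours and Leiden clusters at resolution 1 (Scanpy 1.11.5, igraph 0.11.9). Of 28 clusters, 23 were named from marker lists and 5 were left unnamed, 1 of them by a rule added after its genes were seen. No batch correction was applied. UMIs were summed per class and library; ratios carry exact conditional binomial 95% intervals, shares Clopper-Pearson intervals, and the limit given for a count of 0 is 3 counts of the total. The calls were tested on simulated data. The outcome of that test is not given here, and it cannot supply the spread between animals. Genes named from lists had the largest ratios among those called, at most 4 per list and comparison; the 3 most alike genes per member were named. There were 12 alternatives, and leaving out shared barcodes was added after seeing the data. Symbols came from the files, and for 677 genes from a name table. All calls are relative to the class total.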

Additional observations from a re-analysis of the deposited data

Results flagged for a closer look

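The inhibitor over untreated ratio in fibroblast-like cells had opposite signs at day 90 and day 7 for 4 of the 7 genes. The share of all genes with opposite signs is not given here, so this count is not a result about the members. Of the 4, POSTN alone passed 1.5-fold at both days. For POSTN the log2 ratio was 0.62 at day 90 and -0.75 at day 7. For TNC it was -0.56 at day 90 and 0.35 at day 7. For SPARC it was 0.28 at day 90 and -0.35 at day 7. For CTHRC1 it was -0.24 at day 90 and 0.11 at day 7. Each sign rests on 1 library a group, and the difference between the days was not tested. The shares of the fibroblast-like clusters also differed between these grafts. The FBLN1 cluster held 70.1% of fibroblast-like cells in the FAKI and 20.5% in the untreated day 90 graft. The MMP13 cluster held 43.9% in the FAKI and 29.8% in the untreated day 7 graft. Whether these shares bear on the signs was not tested. With shared clusters weighing the same, POSTN and SPARC kept opposite signs (POSTN 0.13 at day 90 and -0.44 at day 7, SPARC 0.21 and -0.57), whereas TNC had 0.19 and -0.13 and CTHRC1 0.06 and -0.16, so that the signs of those 2 genes were turned round at both days. At day 7 TNC was lower in the FAKI graft in the THBS4 cluster alone, at 449.5 against 1032 CPM in 23 and 34 cells. In the MMP13, FBLN1, GREM1 and UBE2C clusters it was higher, at 664, 226, 526 and 659 CPM against 586, 172, 387 and 587 CPM. CTHRC1 had 1124 against 2041 CPM in the THBS4 cluster. It was also lower in the MMP13 and GREM1 clusters and higher in the FBLN1 and UBE2C clusters.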

How the results depend on the processing

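No paired analysis was possible because each group is 1 library. Of 30 calls of members in fibroblast-like cells, 14 held under every alternative run, the 2-fold threshold apart; of their 360 alternative values, 332 kept direction and 1.5-fold, 25 kept direction under it and 3 changed sign. The 3 came from giving the shared clusters equal weight, with log2 ratios of 0.01 for FN1 in FAKI over untreated grafts at day 90, -0.25 for FN1 in the FAKI day 90 graft over unwounded skin, and -0.75 for THBS1 in FAKI grafts at day 90 over day 7. That setting gives clusters of as few as 23 cells the weight of large ones. It used 5 clusters for FAKI over untreated at day 7, and fewer cells, from 2 clusters, at day 90. Against unwounded skin it used 1 cluster, and for day 90 over day 7 it used 2 in FAKI and 5 in untreated grafts. Numbers of members past the threshold changed as follows. With clusters weighing the same they were 0 for FAKI over untreated at day 90 and 1 at day 7 (THBS2 in place of POSTN), 3 for the FAKI day 90, 3 for the untreated day 90, 3 for the FAKI day 7 and 6 for the untreated day 7 graft over unwounded skin, 6 for FAKI day 90 over day 7 (5 higher, 1 lower) and 0 for untreated day 90 over day 7. With a 2-fold threshold they were 0 for FAKI over untreated at day 7, 0 at day 90, 3 for the FAKI day 7 graft over unwounded skin, 0 for untreated day 90 over day 7 and 1 for FAKI day 90 over day 7. With each library clustered alone they were 2 for FAKI over untreated at day 7 and 1 at day 90 (TNC, with POSTN and FN1 lost). Keeping doublets gave 1 and median-of-ratios scaling gave 1 for FAKI over untreated at day 90, FN1 being the call lost in both. The median of all genes in fibroblast-like cells shifted by 0.28 and 0.34 (log2) for the untreated and FAKI day 7 grafts and 0.17 for the untreated day 90 graft over unwounded skin, -0.13 for FAKI over untreated at day 90, and -0.18 and -0.35 for untreated and FAKI day 90 over day 7.

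In other classes, log2 ratios that changed sign with each library clustered alone were 1.92 for POSTN in endothelial-like and 1.28 in keratinocyte-like cells and 0.05 for SPARC in keratinocyte-like cells (FAKI over untreated, day 7), -0.92 for FN1 in endothelial-like cells (untreated day 90 over unwounded), and, in keratinocyte-like cells, -0.47 for TNC (untreated day 7 over unwounded) and 0.07 for SPARC (FAKI day 90 over unwounded). POSTN in endothelial-like cells (FAKI day 90 over day 7) was 0.25 with members kept for clustering and 0.20 at resolution 2. THBS1 in keratinocyte-like cells was 0.50 (FAKI day 90 over unwounded) and 0.03 (FAKI day 90 over day 7) by the mean of per-cell CPM. The cause was not tested. With genes at 10 CPM or more, 2.83% of genes were higher and 6.43% lower in FAKI over untreated grafts at day 7, and 6.27% and 5.66% at day 90. Levels under about 50 CPM outside fibroblast-like cells may include free RNA. T or NK-like cells were the only measure of it, and their levels differed by gene, so no common limit is shown.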
